A study of Caenorhabditis elegans with 2 samples.

Results

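The autosomal intergenic distal candidate regions of NHR-11 in first-stage larvae of Caenorhabditis elegans numbered 316, out of 28727 listed from the pooled replicates of a chromatin immunoprecipitation and sequencing (ChIP-seq) experiment. The list holds background as well as peaks, so a region in it is not by itself a binding site. They were chosen by their pooled signal value, which had to reach 40 on the authors' scale, and by the position of their summit. The summit had to lie on an autosome, outside every protein-coding gene body, outside every exon of a non-coding gene, and outside the promoter windows, which covered 1000 bp before and 200 bp after each protein-coding 5′ end in the WBcel235 annotation. Of the 1758 candidates at 40 or more, 892 were autosomal promoter regions, 168 lay in autosomal introns and 107 were distal regions of the X chromosome chosen the same way. On the autosomes, another 4863 distal candidates had a pooled signal under 40, so that 5179 autosomal candidates were distal in all.

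The experiment had 1 group with 2 biological replicates. Both came from strain OP305, genotype unc-119(ed3) III; wgIs305, in which an integrated transgene supplies NHR-11 joined to eGFP, and both were whole L1 larvae of mixed sex. DNA fragments of 150 to 350 bp were selected. No untagged, untreated or other-stage sample was compared here, and whole animals do not show in which cells a region was bound. No test was made, because there is no second group and regions are not replicates of a condition. The 95% intervals of shares are exact (Clopper-Pearson), and those of medians are ranked values chosen by the binomial distribution. Both cover the counting of regions only. The lists give no read counts, so the depth is unknown.

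NHR-11 belongs to the nuclear hormone receptors, transcription factors with a zinc-finger DNA-binding domain and, in most members, a ligand-binding domain, a family that is greatly expanded in nematodes. Regulatory sites away from promoters can act as enhancers on a gene at a distance. In C. elegans most genes are trans-spliced, which removes the first stretch of the primary transcript, so an annotated 5′ end can lie downstream of the place where transcription began. A region counted as distal here is therefore distal from annotated protein-coding 5′ ends. It can still lie close to the 5′ end of a non-coding gene.

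Sequences of 101 bases centred on the summit are printed for 8 of the strongest distal regions outside the first autosome, because they show both the repeat that many of these regions hold and strong regions without it. They were read from the RefSeq sequence of WBcel235 (ce11), plus strand, and capitals mark matches to GAGAGA or GACGCA on either strand, so that TCTCTC and TGCGTC are matches too. Each is named for the protein-coding gene whose 5′ end was nearest. The nhr-20 region is at chrIII:4237846-4237946, sup-26 at chrIII:4282101-4282201, mtm-3 at chrIII:3801480-3801580, F54F12.1 at chrIII:13061255-13061355, T04C4.3 at chrIV:2219584-2219684, F07H5.13 at chrII:8787528-8787628, ogt-1 at chrIII:7155803-7155903 and epg-9 at chrIV:2599755-2599855.
nhr-20: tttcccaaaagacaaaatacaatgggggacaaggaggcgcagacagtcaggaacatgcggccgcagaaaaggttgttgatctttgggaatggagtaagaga
sup-26: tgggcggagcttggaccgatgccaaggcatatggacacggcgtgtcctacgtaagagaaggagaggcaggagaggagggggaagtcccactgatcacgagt
mtm-3: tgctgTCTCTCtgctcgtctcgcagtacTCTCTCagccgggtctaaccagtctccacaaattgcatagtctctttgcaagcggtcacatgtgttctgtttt
F54F12.1: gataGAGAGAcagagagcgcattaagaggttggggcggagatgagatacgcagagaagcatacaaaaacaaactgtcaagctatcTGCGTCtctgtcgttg
T04C4.3: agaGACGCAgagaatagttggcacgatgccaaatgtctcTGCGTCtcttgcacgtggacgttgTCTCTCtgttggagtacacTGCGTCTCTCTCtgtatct
F07H5.13: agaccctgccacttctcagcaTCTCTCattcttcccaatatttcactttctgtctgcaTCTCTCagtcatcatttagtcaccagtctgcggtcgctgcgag
ogt-1: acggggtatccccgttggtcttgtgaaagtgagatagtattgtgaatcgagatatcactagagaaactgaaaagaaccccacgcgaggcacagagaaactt
epg-9: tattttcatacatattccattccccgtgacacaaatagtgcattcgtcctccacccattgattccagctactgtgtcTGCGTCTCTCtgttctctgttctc
The nhr-20, sup-26 and ogt-1 windows held neither word. The F54F12.1, T04C4.3 and epg-9 windows held both, and the mtm-3 and F07H5.13 windows held GAGAGA alone.

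The pooled signal of the 316 regions, which chose them and is given as a description, had a median of 51.2, quartiles of 45.4 and 72.0 and a highest value of 329. A pooled signal of 100 or more was found in 43 regions (13.6%). The lowest regions inside the threshold lay by R11A5.3 on chromosome I at 40.06, by aqp-2, an aquaporin gene, on chromosome II at 40.08, and by nkcc-1, a cation-chloride cotransporter gene, on chromosome IV at 40.11. The highest autosomal distal regions just outside it lay by F32B5.6 on chromosome I at 39.996, by egl-3, a proprotein convertase gene, on chromosome V at 39.99, and by kin-19, a casein kinase gene, on chromosome III at 39.85. The authors' list of called peaks, made with the irreproducible discovery rate (IDR) method, held 177 of the 316 regions (56.0%), beside 3.97% of all 28727 candidates. The rest are candidates that were not called. The pooled signal enters both choices, so nothing is read from that count.

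The strongest region lay upstream of nhr-20, a gene of the NHR-11 family, at 4677 bp from its 5′ end, and had 154 and 170 in replicates 1 and 2 and 329 pooled. The region upstream of sup-26, which encodes an RNA-binding protein, had 153 and 119 in replicates 1 and 2 and 273 pooled, at 1927 bp. Replicate 2 was the higher at nhr-20 and replicate 1 at sup-26. The region at chrI:8786847-8787020 lay in a divergent gap, 1532 bp upstream of mfb-1 and with sup-17, an ADAM-family metalloprotease gene, on the other side, and had 112 and 128 in replicates 1 and 2 and 241 pooled. The region upstream of mtm-3, a myotubularin-family phosphatase gene, had 119 and 117 in replicates 1 and 2 and 238 pooled, at 1063 bp. The replicates were nearly equal at mtm-3 and at the F54F12.1 region, which had 115 and 114 in replicates 1 and 2 and 229 pooled, at 5863 bp.

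The T04C4.3 region, the strongest on chromosome IV, had 104 and 121 in replicates 1 and 2 and 224 pooled, and lay 2778 bp upstream of T04C4.3 in a divergent gap shared with fnip-2. The region beside nlp-40, a neuropeptide gene, at chrI:16904-17113 had 116 and 109 in replicates 1 and 2 and 222 pooled. It was the one region of the strongest 10 in a convergent gap, of 646 bp, which nlp-40 shares with rcor-1, a gene for a CoREST-family corepressor. The strongest region on chromosome II, 2979 bp upstream of F07H5.13, had 118 and 99.0 in replicates 1 and 2 and 215 pooled. The strongest on chromosome V lay 1933 bp upstream of hif-1, the hypoxia-inducible transcription factor gene, with 113 and 95.3 in replicates 1 and 2 and 206 pooled. The tenth lay downstream of atfs-1, the transcription factor gene of the mitochondrial unfolded protein response, with 104 and 92.6 in replicates 1 and 2 and 199 pooled, 3870 bp from its 5′ end. These 10 were taken for their pooled signal, so their high replicate values follow from the choice.

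Below these, the region upstream of din-1, a corepressor gene of the DAF-12 receptor pathway, had 99.1 and 100.4 in replicates 1 and 2 and 195 pooled. The region upstream of ogt-1, the O-GlcNAc transferase gene, had 108 and 81.3 in replicates 1 and 2 and 191 pooled. Several regions lay in groups: 40 of the 316 (12.7%) had another of the 316 within 2000 bp, 19 had one within 1000 bp, and 6 overlapped another. The gap upstream of sup-26 held 4, with pooled signals of 273, 77.2, 59.9 and 47.4. Another 4 followed each other between F54F12.1 and Y39E4B.6, at 229, 125, 44.2 and 40.6.

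The replicate values did not choose the regions directly, but the pooled signal was made from both replicates. A candidate overlapped in replicate 1 at all 316 regions and in replicate 2 at 315. Under 40, 36.8% of the autosomal distal regions had one in both replicates. At 40 or more, 99.2% of promoter, 99.4% of intron and 98.1% of X distal regions had one in both. The contrast follows largely from the threshold on pooled signal, so nothing is read from it. Among the 316, the region without a replicate 2 candidate lay near Y94H6A.2 on chromosome IV, with 54.2 in replicate 1 and 50.7 pooled. The replicate 1 signal had a median of 29.4 with a range of 8.99 to 154, and the replicate 2 signal a median of 26.5 with a range of 7.29 to 170. Replicate 1 was the higher in 188 of 315 regions (59.7%), and the replicates were within 2-fold of each other in 251 (79.7%). The sum of both replicate signals came within 0.8 to 1.25 times the pooled signal in 301 of 315 regions.

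The log2 ratio of replicate 1 to replicate 2 had a median of 0.11, quartiles of -0.33 and 0.57, and a range of -1.70 to 2.41. The lowest ratios were at dyb-1, a dystrobrevin gene, with 11.5 in replicate 1 and 37.3 in replicate 2, and at F45D3.1, with 9.28 and 28.6. The highest were at mec-8, an RNA-binding protein gene, with 38.7 in replicate 1 and 7.29 in replicate 2, and at Y39E4B.6, with 38.7 and 8.17. At mec-8 and Y39E4B.6 the replicate 2 summit lay 103 bp and 207 bp from the pooled summit, so the matched candidate lay beside it. Over all regions the median shift of the summit was 10 bp in replicate 1 and 18 bp in replicate 2. Of the 316 regions, 216 (68.4%) were among the 1758 highest candidates of replicate 1 and 218 (69.0%) among those of replicate 2. Each replicate list held 30000 candidates. The regions were chosen by a pooled signal close to the sum of the replicates, so high shares follow from the choice.

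**Figure D1:**
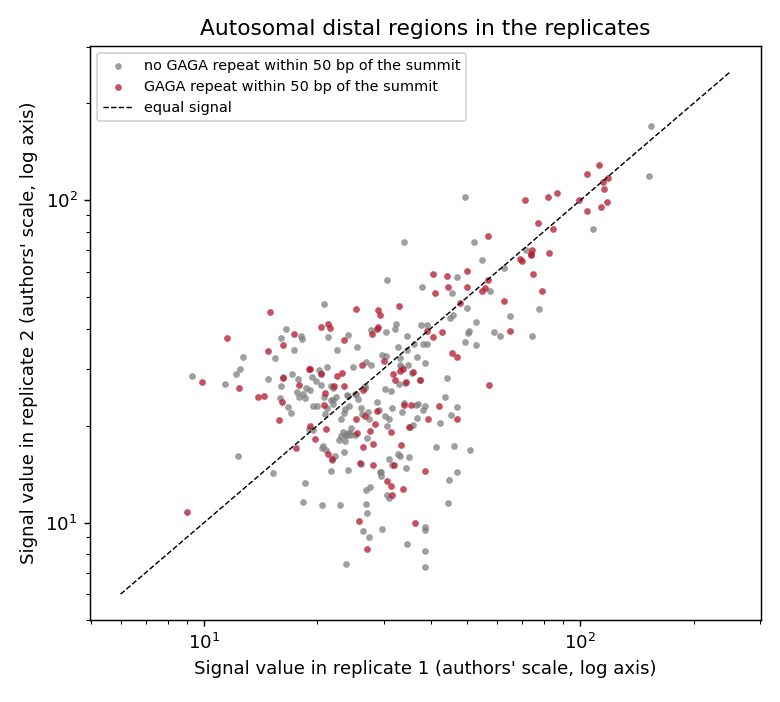
Signal of the autosomal distal regions in replicate 1 (x axis) and replicate 2 (y axis), both on the authors' scale and log axes, 1 point per region with a candidate in both replicates (n = 315). Red points have the GAGA repeat within 50 bp of the summit, grey points do not, and the dashed line is equal signal; 79.7% of regions lie within 2-fold of it.

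The regions were spread over all autosomes, with 60 on chromosome I, 68 on II, 51 on III, 63 on IV and 74 on V. Per Mb of distal sequence, which makes up 21.2% of the autosomes, there were 22.9 on I, 21.0 on II, 19.6 on III, 13.8 on IV and 16.7 on V. Distal regions under 40 had another order, with 292, 270, 316, 281 and 251 per Mb, highest on III. The median pooled signal was 48.7 on I, 55.0 on II, 51.0 on III, 51.2 on IV and 52.8 on V, with broad overlap among the chromosomes. The central 50% of each chromosome's length held 58.5% of the regions (interval 52.9 to 64.0), 49.5% of those under 40 (48.1 to 50.9) and 64.0% of the promoter regions (60.8 to 67.2).

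**Figure D2:**
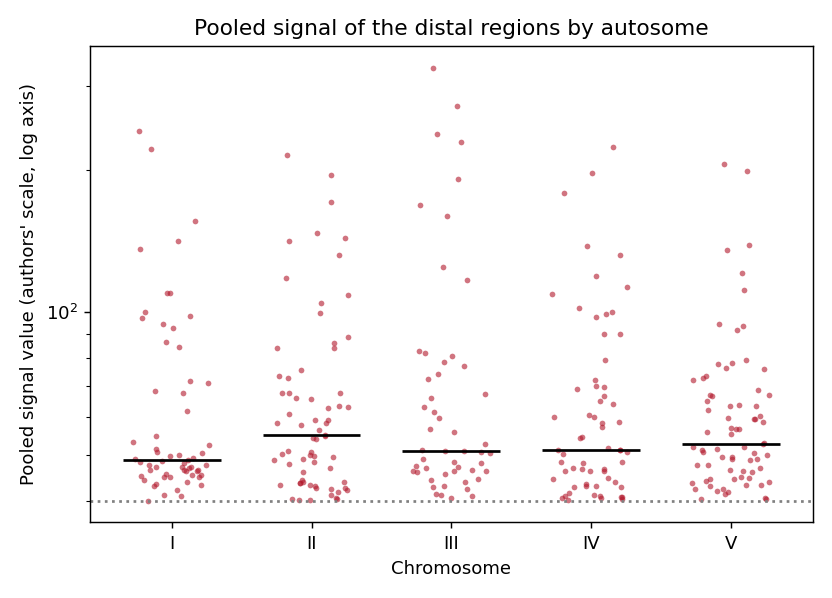
Pooled signal (y axis, authors' scale, log axis) of each of the 316 regions by autosome, with points spread sideways at random and black bars at the medians. The dotted line is the threshold of 40; medians run from 48.7 on I to 55.0 on II, and the 2 highest points, 329 and 273, are on III.

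The median distance from the summit to the nearest protein-coding 5′ end was 2221 bp (interval 1957 to 2404), beside 2572 bp for distal regions under 40 and 2995 bp for X distal regions. The rule fixes the lower part of these distances, except for 6 regions nearer than 1000 bp that lay past the end of a short gene. Distances under 1500 bp made up 26.9% of the regions and 21.9% of those under 40, while distances of 5000 bp or more made up 12.0% (8.65 to 16.1) and 18.2% (17.1 to 19.3). The farthest region had 22.4 and 24.6 in replicates 1 and 2 and 42.9 pooled, and lay 13447 bp upstream of irld-18, in a gap of 35563 bp that irld-18 shares with dmd-6, a DM-domain gene. The next lay 11608 bp downstream of the 5′ end of snt-1, the synaptotagmin gene, with 18.1 and 37.9 in replicates 1 and 2, and the next 10553 bp from Y37A1B.7 with 30.6 and 56.4. Replicate 2 was the higher at each of these 3.

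**Figure D3:**
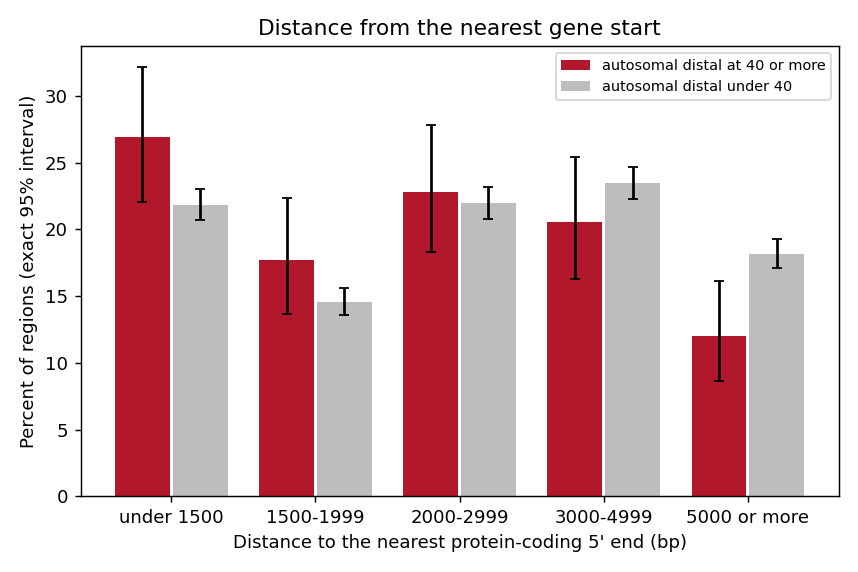
Percent of regions (y axis) by distance from the summit to the nearest protein-coding 5′ end in bp (x axis), for the 316 autosomal distal regions at 40 or more (red) and the 4863 under 40 (grey), with exact 95% intervals. The share under 1500 bp is 26.9% in red and 21.9% in grey, and that at 5000 bp or more 12.0% and 18.2%.

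The regions lay upstream of the nearest 5′ end in 237 of 316 cases (exact interval 69.8 to 79.7%), beside 68.4% of distal regions under 40 and 65.4% of X distal regions. Gaps between genes on the same strand held 188 (59.5%), gaps between divergent genes 105 (33.2%) and gaps between convergent genes, where no gene starts, 22 (6.96%, 4.41 to 10.4). Under 40 these shares were 55.4%, 31.2% and 13.4%, and 18.7% of the X distal regions lay in convergent gaps. One region, by homt-1, lay between the end of chromosome I and its first gene. The median gap was 5955 bp, beside 7284 bp under 40. The pooled signal had similar medians in each arrangement, 51.6 between genes on the same strand, 50.6 between divergent and 48.8 between convergent genes.

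The promoter window of the nearest gene also held a peak at 40 or more for 44 of the regions (13.9%, interval 10.3 to 18.2), beside 290 of the 4863 regions under 40 (5.96%). Among these genes were hif-1, din-1, ogt-1, nhr-34 and the kinase gene mnk-1.

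In all, 14 gene families were looked up by gene name on either side of each region. Nuclear hormone receptor genes flanked 17 regions (5.38%, interval 3.16 to 8.47). The share under 40 was 4.28%, inside that interval. In 14 of the 17 the receptor gene had the nearest 5′ end, and 7 of the 17 were on chromosome V, where many nhr genes lie in clusters. The region upstream of nhr-88 had 71.4 and 100.5 in replicates 1 and 2 and 171 pooled. The nhr-175 region had 71.5 and 70.3, and the region between nhr-157 and nhr-158 had 74.3 and 37.9. A region upstream of nhr-34 had 41.0 and 51.6, and one upstream of nhr-10 had 40.7 and 37.7. The nhr regions thus ran from the strongest of all down to nhr-70, at 42.03 pooled.

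For the other families, each share is given beside that of the distal regions under 40. Chemoreceptor genes flanked 12 (3.80%, interval 1.98 to 6.54, against 6.48% under 40, just inside it). The strongest after srw-60, which shares the nhr-88 gap, was between srd-32 and srd-33 at 94.5 pooled. Neuropeptide or insulin genes flanked 8 (2.53%, against 2.34%), led by nlp-40 and by ins-17, whose gap with cpg-1 held a region of 169. The collagen prefixes matched 5 (1.58%, against 1.69%), led by col-50 at 68.1 and col-128 at 60.8, and include dpy-19, which is not a collagen gene. F-box genes flanked 4 (1.27%, against 1.34%), of which the strongest 2, at 89.9 and 60.03, lay in 1 gap beside fbxb-78. Homeobox genes flanked 3 (0.949%, against 1.89%), 2 of them in the gap of ceh-58, at 57.9 and 48.3, and the other 1204 bp upstream of the Hox gene mab-5 at 46.9. Cytochrome P450 genes flanked 2 (0.633%, against 0.308%), cyp-13A1 at 49.0 and cyp-23A1 at 47.9. Single regions lay beside rpl-21, a ribosomal protein gene, at 67.2, clec-91, a C-type lectin gene, at 54.9, and hlh-10, a helix-loop-helix gene, at 46.5, where those families flanked 0.637, 1.23 and 0.637% of the regions under 40. T-box, Wnt pathway, heat shock and UDP-glucuronosyltransferase genes flanked 0, and under 40 they flanked 0.432, 0.679, 0.206 and 0.329%, too few for a count of 0 in 316 to show a difference.

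Small non-coding RNA genes were within 1000 bp of 12 regions (3.80%, interval 1.98 to 6.54), 10 of them snoRNA and 2 miRNA genes. The share was 2.88% in distal regions under 40, inside that interval, 7.40% in promoter, 8.93% in intron and 13.1% in X distal regions. The nearest such gene was a tRNA gene within 500 bp in 0 of the 316 regions, which allows up to 1.16%, a bound that includes the 0.658% of distal regions under 40 and the 0.448% of promoter regions. It was so in 2.38% of intron regions and in 9 of the 107 X distal regions (8.41%, 3.92 to 15.4). The strongest 3 were the din-1 region, 626 bp from the snoRNA gene ZK20.9, the tmem-231 region, 39 bp from the snoRNA gene T26A8.6 with 32.7 and 34.97 in replicates 1 and 2, and the Y37A1B.7 region, 781 bp from mir-52. The other miRNA gene was mir-53, 149 bp from a region by hrg-5 with 26.4 and 17.2 in replicates 1 and 2. The nearest non-coding gene was a piRNA gene, of the small RNAs of the germline, within 500 bp at 21 regions (6.65%), 17 of them on chromosome IV. It was so at 12.0% of the regions under 40. A non-coding gene of any kind, pseudogenes included, was within 1000 bp of 84 regions (26.6%, interval 21.8 to 31.8). That share was 36.8% under 40, 26.9% in promoter, 31.0% in intron and 29.9% in X distal regions.

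The 101 bases around the summit had a median GC content of 41.6% (interval 40.6 to 43.6), beside 31.7% in distal regions under 40, 44.6% in promoter, 43.1% in intron and 41.6% in X distal regions. Over 50% of the window was soft-masked as repeat in 31 regions (9.81%), against 40.5% under 40, 13.3% of promoter and 9.35% of X distal regions.

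The word GAGAGA, which resembles the repeat that GAGA factor binds in Drosophila, was present on either strand in 118 of the 316 windows (37.3%, interval 32.0 to 42.9). It was in 7.98% of the distal regions under 40 (7.23 to 8.78), in 23.8% of the promoter regions (21.0 to 26.7), in 32.1% of the intron regions (25.2 to 39.8), in 21.5% of the X distal regions (14.1 to 30.5) and in 5.24% of all autosomal 101-base windows. The interval of the autosomal distal regions overlapped those of the intron regions and not those of the promoter and X distal regions. By GC content, the share among the 316 was 12.8% below 35% GC, 34.8% from 35 to 40%, 39.3% from 40 to 45%, 62.7% from 45 to 50% and 51.8% at 50% or more. The regions under 40 held it in 3.40, 10.8, 16.7, 24.8 and 26.3% of the same classes, lower in each. The promoter regions held it in 11.1, 20.8, 23.4, 28.4 and 28.8%.

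In 4 groups of 79 regions by rising pooled signal, GAGAGA was in 24.1, 34.2, 36.7 and 54.4%. The groups' median GC content was 38.6, 42.6, 41.6 and 44.6% in the same order, and its part in the shares was not tested. Regions with the word had a median pooled signal of 60.3 and a median GC content of 46.5%, and those without it 49.6 and 38.6%. Among windows with a match, where the window itself limits the distance, the nearest match lay a median of 15.5 bp from the summit (interval 12.5 to 18.5), beside 22.5 bp under 40 (19.5 to 24.5), 19.5 bp in promoter (16.5 to 23.5) and 18 bp in intron regions (9.5 to 24.5). In 293 of the 316 regions the summit is the centre of a region of the default width of 370 bp, so its position may be less exact than the distances printed. In 20-bp bins the word was in 12.7% and 14.6% of the regions just left and right of the summit. At the bins centred 490 bp away it was in 1.27% and 1.58%. The central bins held 7.06% and 6.39% in promoter, 10.1% and 11.3% in intron and 9.35% and 4.67% in X distal regions. An unbroken GA or TC alternation of 10 or more bases was in 28 of the 316 regions (8.86%). It was in 1.05% of the distal regions under 40, 2.35% of promoter, 9.52% of intron and 2.80% of X distal regions. The share in the 316 was thus close to that in the intron regions. The longest among the 316, of 37 bases, lay by Y48G8AR.8, whose region had 27.9 and 38.4 in replicates 1 and 2.

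**Figure D4:**
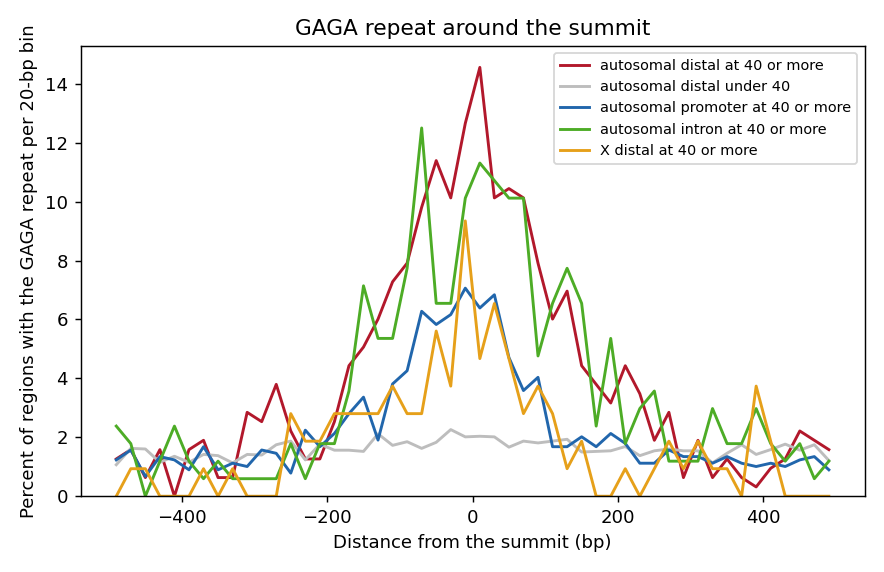
Percent of regions with the GAGA repeat in each 20-bp bin (y axis) by distance from the summit in bp (x axis), 1 line per class of region. The line of the autosomal distal regions peaks at 14.6% beside the summit and falls to 1.58% at 490 bp.

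The word GACGCA was in 48 windows (15.2%, interval 11.4 to 19.6), against 2.82% of the regions under 40, 20.9% of promoter (18.2 to 23.7), 15.5% of intron, 9.35% of X distal regions (4.57 to 16.5) and 2.04% of all autosomal windows. Both words were in 31 windows (9.81%), GAGAGA alone in 87, GACGCA alone in 17 and neither in 181 (57.3%). With neither were nhr-20 and sup-26, whose sequences are printed above. The strongest regions with GACGCA were those by mfb-1, F54F12.1 and T04C4.3. By rising signal the 4 groups of 79 held GACGCA in 10.1, 12.7, 12.7 and 25.3%. The intervals of the lowest and highest groups, 4.47 to 19.0 and 16.2 to 36.4, overlapped.

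Other words searched on both strands were rarer. The nuclear receptor half-site AGGTCA was in 2.53% of the windows and in 2.55% of those under 40, and AGTGCA in 5.70% and 3.56%. The interval of the AGTGCA share, 3.41 to 8.85, includes the share under 40. CACGTG, the E-box core of many helix-loop-helix factors, was in 6.33% (interval 3.91 to 9.61), against 1.77% under 40 and 10.3% of X distal regions. Promoter and intron regions held it in 4.15% and 4.17%, both inside that interval. TTTTCAG, the C. elegans splice acceptor, was in 4.75% and 9.69%, and a run of 8 T in 5.70% and 16.7%, both lower than under 40. The other classes at 40 or more were low too. Promoter, intron and X distal regions held TTTTCAG in 4.04, 5.95 and 0.935% and the run of 8 T in 4.93, 6.55 and 5.61%. A word in a window is a match of letters and does not show that a factor was bound there.

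**Figure D5:**
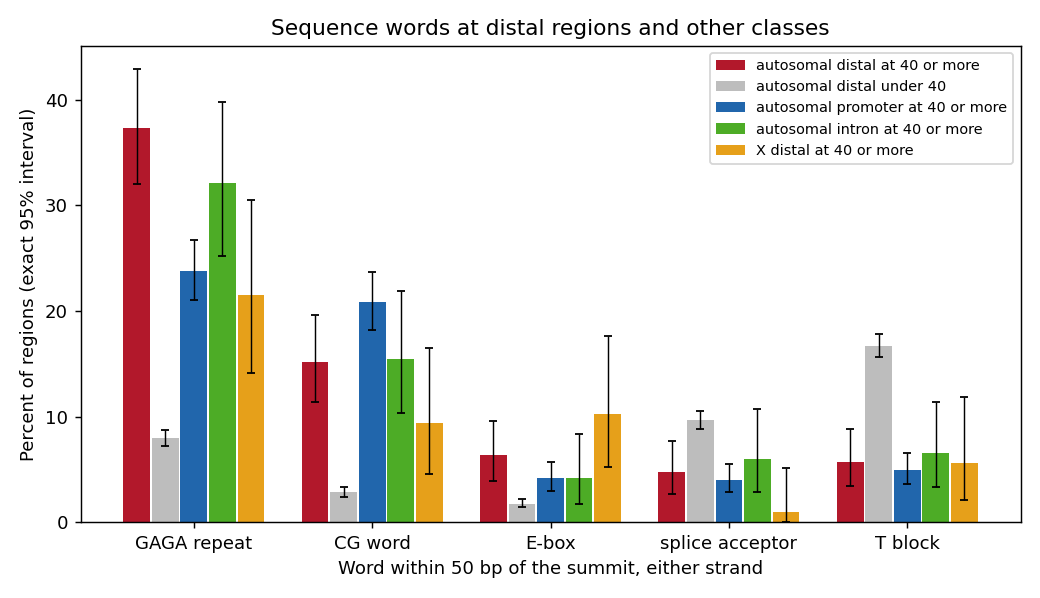
Percent of regions (y axis) with each of 5 words within 50 bp of the summit on either strand (x axis), for 5 classes of region, with exact 95% intervals. The GAGA repeat reaches 37.3% in the autosomal distal regions and 23.8% in promoter regions, and the CG word, GACGCA, 15.2% and 20.9%.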

How the data were processed

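NHR-11 tagged with eGFP was immunoprecipitated from 2 biological replicates. The authors deposited a candidate list for each replicate (30000 regions each), a pooled list (28727) and a called list (1141) on ce11, each region with a signal value in column 7 whose scale and normalization are not stated. Per the labels, a control experiment is listed as possible. It is not analysed here. For the aligner, the peak caller and the IDR threshold, nothing is stated in the labels or lists. The weakest called region had a signal of 49.9. Lists on ce10 were not used.

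Summits were placed against Ensembl release 115 (WBcel235) genes with Python 3.11.15, pandas 2.3.3 and scipy 1.17.1, by scripts tested on simulated data. A replicate value is that of the overlapping candidate (at least 1 bp) with the nearest summit. Most of the 316 regions, 293, have the default width of 370 bp. The members, gene lists and words were chosen with earlier results of these data known. Regions were named by rule: the strongest 10, the strongest on each autosome, the 3 farthest from a 5′ end, the 3 on each side of the threshold, the 2 highest and 2 lowest replicate ratios, the strongest 3 near a small RNA gene, the strongest 2 per family and the strongest 3 with each of the main words. Other named regions were chosen after their values were seen. Alternatives covered the promoter window, the threshold, the summit, the sequence window, each replicate and the annotation.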

Additional observations from a re-analysis of the deposited data

How the results depend on the processing

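Of 107 alternative values, 85 stayed within the interval (or 1.5 times the count) of the value reported and 22 moved. The number of regions was 198 with promoter windows of 2000 bp, 175 at a pooled signal of 50 or more and 613 at 30 or more. Leaving out the promoter windows of non-coding genes as well left 252 regions, which is within 1.5 times the count. The median distance to a 5′ end was 1724 bp with promoter windows of 500 bp and 3077 bp with 2000 bp. The median GC content was 37.6% at a signal of 30 or more and 40.5% in windows of 100 bp on each side. The GAGAGA share was 46.3% at 50 or more, 26.3% at 30 or more, 26.3% within 25 bp and 53.2% within 100 bp. The GACGCA share was 11.3% at 30 or more, 8.86% within 25 bp and 24.1% within 100 bp. Wider and narrower sequence windows hold more and fewer bases by construction; the cause of the other shifts was not tested. With regions taken from 1 replicate alone, the 1758 highest candidates gave 295 to 302 regions, a median GC content of 38.6 to 40.6% and a GAGAGA share of 29.8 to 34.4%. Leaving out regions in RefSeq promoter windows or mRNA spans, an alternative chosen after seeing the data, left 306 regions, of which 36.6% held GAGAGA. No paired analysis was possible because there is 1 group. Without read counts, the precision of each signal value is unknown.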

Other observations

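Among the 2080 words of 6 bases, searched after seeing the data, some CG words were less frequent in the autosomal distal regions than in the promoter regions. AACGCG was in 5 of 316 windows (1.58%, interval 0.516 to 3.65) and in 116 of 892 promoter windows (13.0%, 10.9 to 15.4), and in 0.946% of distal regions under 40, 1.19% of intron and 2.80% of X distal regions. GCGCCA was in 10 (3.16%, 1.53 to 5.74) and 119 (13.3%, 11.2 to 15.7), and in 1.52, 2.98 and 1.87% of the other 3 classes. The low shares of both words were thus found in each class outside promoters. In the other direction, AGAGAA was in 119 (37.7%, 32.3 to 43.3) and 204 (22.9%, 20.2 to 25.8), and in 11.4, 27.4 and 22.4% of the other 3 classes. These words overlap each other and were picked for their differences, so no test was made.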
